A study of Mus musculus with 8 samples.

Results

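The p53 pathway was followed through 32 genes in mouse aortic smooth muscle cells (MASMCs) with and without *Hint1*. The genes were p53 itself, its regulators, and well-known mouse targets in growth arrest, cell death, and DNA repair. They were listed by symbol, because HINT1 has been described as a tumor suppressor that acts on p53. Earlier results of these data were known when the list was made. All 32 were among the 18533 gene symbols counted in each sample. RNA-Seq counts were available for WT MASMCs (n = 4) and for MASMCs from *Hint1*-/- mice (n = 4). Every culture was a primary culture from aortas of young male mice and was treated with PDGF-BB, a growth factor that drives smooth muscle cells out of their contractile state, at 20 ng/mL for 24 hours. No untreated cells were among the samples, so the genotypes were compared under PDGF-BB only. Nothing in the labels states that the 4 samples of a genotype came from separate mice or cultures, and the p-values measure the spread between these samples, which may be technical.

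p53, encoded by *Trp53*, is a transcription factor that is held at a low level in unstressed cells by MDM2, a ubiquitin ligase that marks it for degradation. After DNA damage, oncogene signaling, or nutrient stress, p53 escapes MDM2 and binds DNA as a tetramer, and it raises the transcription of genes that halt the cell cycle, repair DNA, or trigger apoptosis. *Mdm2* is itself a target, which closes a negative feedback loop. Because p53 is controlled mainly as a protein, the mRNA levels of its targets are commonly read as a sign of its activity, although many of them also answer to other factors. In vascular smooth muscle, p53 and its target p21 are known as brakes on the proliferation that PDGF-BB stimulates.

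A p53 tetramer recognizes a pair of decamers, each with a tetranucleotide core of CATG or CAAG or CTTG or CTAG. RefSeq promoter windows of the GRCm38.p6 build, running from 250 bases before to 50 bases after an annotated start, were held for 23 of the 32 genes. Cores 6 bases apart, the spacing of adjoining decamers, were found in windows of 5 of the 23 genes (21.7%), which were *Cdkn1a*, *Bbc3*, *Trp53*, *Aen*, and *Plk2*, and in windows of 6.45% of the 10767 tested genes with a window. The set of cores is the same on both strands, since CATG and CTAG are their own reverse complements and CAAG reads as CTTG on the other strand, so 1 search covers both. At most 1 departure from the 20-base p53 consensus without a spacer was found for *Cdkn1a* and *Ccng1*, 2 of 23 genes, and for 0.074% of the tested genes with a window. These matches are a description of the windows, and the members were listed because they are known targets. The stretches of 3 members that fell in *Hint1*-/- samples and of *Trp53* are shown, none of which touches an annotated exon, with the 2 core positions in capitals. They lie at chr17:29090918-29090957 on the plus strand for *Cdkn1a*, chr11:40755452-40755491 on the minus strand for *Ccng1*, chr7:16309476-16309515 on the plus strand for *Bbc3*, and chr11:69580274-69580313 on the plus strand for *Trp53*, each read 5′ to 3′ on its own strand.
Cdkn1a: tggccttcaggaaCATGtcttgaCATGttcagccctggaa
Ccng1: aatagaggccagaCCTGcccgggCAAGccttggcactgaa
Bbc3: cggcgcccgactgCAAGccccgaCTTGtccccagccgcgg
Trp53: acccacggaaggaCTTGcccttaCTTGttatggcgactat
The *Cdkn1a* stretch holds CATG at both core positions and ends its site 32 bases before an annotated start, whereas that of *Ccng1* has CCTG in place of the upstream core. The sites of *Bbc3* and *Trp53* hold both cores but depart from the 20-base consensus at 3 bases each, against 1 for *Cdkn1a* and *Ccng1*.

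The deposited counts summed to between 20778077 and 20888041 per sample, so that counts can be set side by side almost directly. *Hint1*, the targeted gene, ranged over 2272 to 2364 counts in the WT and 713 to 778 counts in the *Hint1*-/- libraries, which left 32.1% of the WT level. The *Hint1*-/- libraries were therefore not free of *Hint1* reads, and which part of the gene is deleted is not given in the sources used here. The cultures carried smooth muscle markers, with a summed level of 1522 to 1671 counts per 1000000 counts (CPM) over 7 genes in WT against 1276 to 1367 CPM in *Hint1*-/- samples, with 5 of the 7 lower and 1, *Smtn*, higher (log2 fold change 0.25) by edgeR's test. Of these, *Myh11* and *Cnn1* were also past a fold change of 1.5. They also carried macrophage markers at a summed level of 1887 to 2186 CPM over 7 genes in WT and 1529 to 1624 CPM in *Hint1*-/- samples, and 5 of the 6 tested macrophage markers fell, *Cd68* by 0.44 on the log2 scale. Fibroblast markers summed to 4978 to 5466 CPM and 5514 to 5906 CPM over 6 genes, with *Dcn* and *Lum* higher and *Dpt* lower, each past an adjusted p of 0.05 and a fold change of 1.5. Schwann cell markers summed to 44.8 to 50.6 CPM in WT and 11.9 to 13.6 CPM in *Hint1*-/- samples over 6 genes. Of the 6, 5 were lower, among them *Sox10*, *Ngfr*, and *Erbb3*, with log2 fold changes of −2.53, −2.73, and −1.13. *S100b*, at 23 to 38 counts in WT and 31 to 37 in *Hint1*-/- samples, did not pass (0.03, edgeR adjusted p = 0.925). The 7 cardiac markers summed to 1.15 to 2.11 CPM and 4.67 to 8.13 CPM, with *Myh6*, *Myl7*, and *Tnnt2* higher and *Myl7* at 0 in every WT sample. Endothelial markers summed to at most 8.08 CPM in any sample and none of the 5 tested passed, *Cdh5* having the smallest adjusted p (0.105, edgeR). In bulk RNA, fewer cells of a type and less RNA per cell cannot be told apart, and the part of these cell types in the results below was not tested.

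Most of the 32 p53 genes differed little between the genotypes, and those that passed the test were mostly lower without *Hint1*. In absolute size the median log2 fold change was 0.08 for the 32 genes and 0.09 for all genes tested. Small changes were thus not particular to the 32. Of the 32 genes, all of which passed the filter on low counts, 11 passed edgeR's quasi-likelihood test at an adjusted p under 0.05, with 10 lower and 1 higher in *Hint1*-/- MASMCs. Across all 13535 genes tested, 21.5% passed, 10.2% lower and 11.2% higher, so lower calls made up 31.3% of the p53 genes against 10.2% of all genes. The median log2 fold change was −0.04 for the 32 genes and 0.00 for all genes. None of the 32 was also past a fold change of 1.5, a limit that 2.83% of all genes passed together with the adjusted p. At an unadjusted p under 0.05 this count was likewise 0, and DESeq2 and limma-voom each gave 0. At an unadjusted p alone, 16 of the 32 were under 0.05, against 32.8% of all genes. In 10 of the 32 genes (31.3%) the CPM values of the genotypes did not overlap, against 23.0% of all genes.

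**Figure D1:**
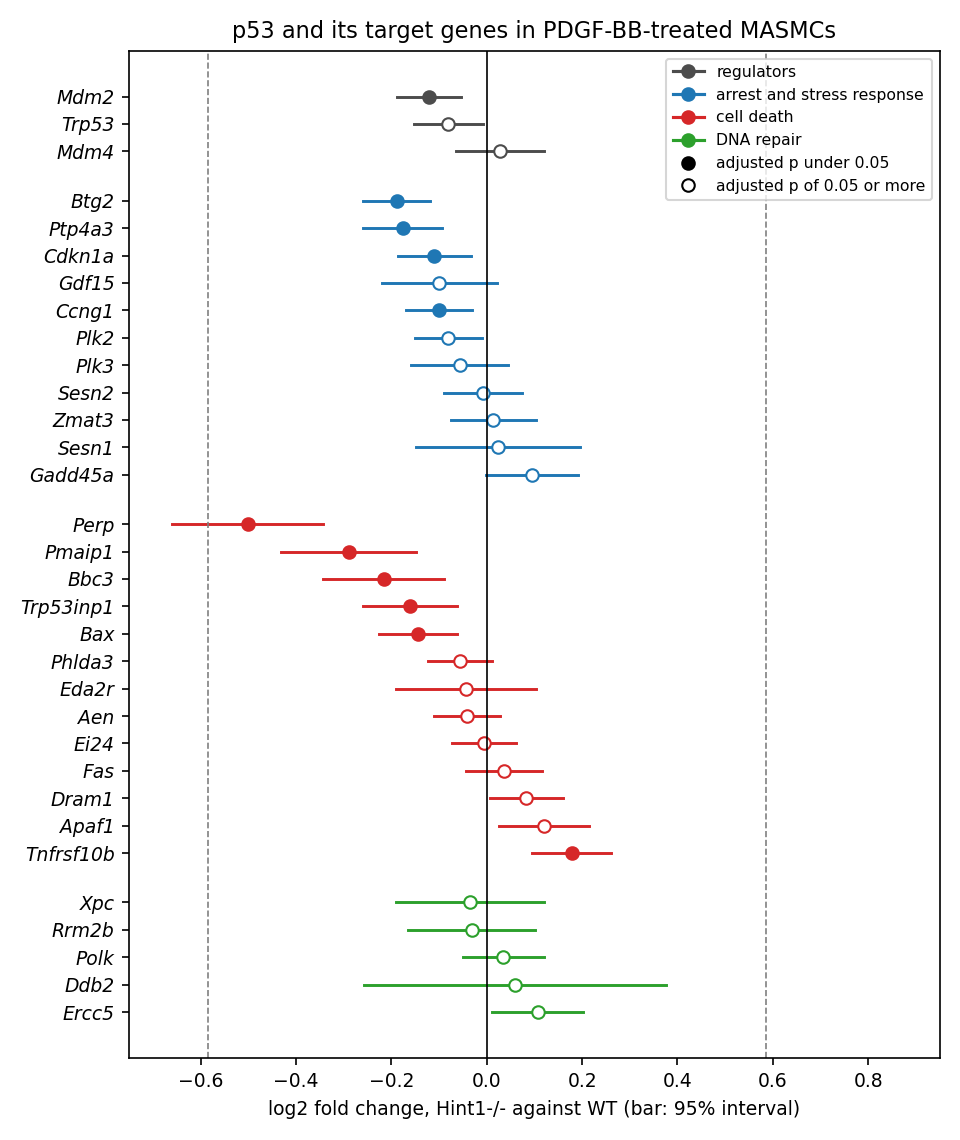
Log2 fold change (*Hint1*-/- against WT) of each of the 32 genes on the x axis, with bars for the 95% interval, colors for the role, filled points for an adjusted p under 0.05, and dashed lines at a fold change of 1.5. The 10 filled points left of 0 lie between −0.50 and −0.10, and 1 filled point, *Tnfrsf10b*, lies right of 0 at 0.18.

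The intervals were narrow enough to bound the genes that did not pass. For these 21 genes the fitted log2 fold changes lay between −0.10 and 0.12, and their 95% intervals reached from −0.26 at the lowest to 0.38 at the highest, so each interval excluded a 1.5-fold change in either direction. The coefficient of variation between samples of a genotype had a median over the 32 genes of 4.43% in WT and 3.13% in *Hint1*-/- samples. It was largest for *Ddb2*, at 17.1% and 11.7%, which had the fewest counts of the 32, down to 46 in a sample. The other 31 genes had at least 100 counts in every sample.

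*Trp53* mRNA was slightly lower in *Hint1*-/- samples without passing the test, and *Mdm2* fell. *Trp53* (chromosome 11, 69580359 to 69591873 of mm10, 14.7 Mb from *Hint1*) had 5310, 5175, 5303, and 5216 counts in WT replicates 1 to 4 and 5013, 5079, 5010, and 4611 in *Hint1*-/- replicates 1 to 4. The highest *Hint1*-/- value lay below the lowest WT value, and *Hint1*-/- replicate 4 was the lowest of all. Mean levels were 251 ± 3.67 CPM for WT and 238 ± 10.5 CPM for *Hint1*-/- MASMCs (SD, n = 4 each), a log2 fold change of −0.08 with a 95% interval of −0.15 to −0.01 (edgeR adjusted p = 0.113). *Trp53* did not pass the test in any of the 15 alternative settings tried, with an adjusted p between 0.0772 and 0.345.

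*Mdm2*, the ligase and feedback target, lies on chromosome 10 from 117688875 to 117710758 and had 8739, 9151, 8497, and 8599 counts in WT samples and 8095, 7956, 7828, and 8041 in *Hint1*-/- samples. All *Hint1*-/- samples lay below all WT samples. *Mdm2* fell from 418 ± 12.9 CPM to 385 ± 6.03 CPM (SD, n = 4 each), a decrease of 0.12 on the log2 scale (edgeR adjusted p = 0.0105, SE 0.032), and the call held in all 15 alternatives. *Mdm4*, whose product binds p53 and blocks its activation of transcription, had 1562 to 1707 counts in WT and 1557 to 1796 in *Hint1*-/- samples. Its ranges overlapped, and its log2 fold change was 0.03 (95% interval −0.06 to 0.12, edgeR adjusted p = 0.717).

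Among the 11 genes of growth arrest and stress response, *Btg2*, *Ptp4a3*, *Cdkn1a*, and *Ccng1* fell and none rose. Lower calls made up 36.4% of the 11, against 10.2% of all genes. *Btg2*, an antiproliferative gene whose product works with the mRNA deadenylase complex, changed most. It had 1558, 1577, 1594, and 1515 counts in WT replicates 1 to 4 and 1373, 1371, 1345, and 1347 in *Hint1*-/- replicates. The samples of each genotype were close together and the groups were well apart, at 74.7 ± 1.52 CPM and 65.5 ± 0.853 CPM (SD, n = 4 each). *Btg2* fell by 12.3% (log2 fold change −0.19, edgeR adjusted p = 0.000414, SE 0.034). *Ptp4a3*, which encodes a phosphatase of the PRL family, had 1127, 1048, 1038, and 1047 counts in WT and 935, 903, 960, and 943 in *Hint1*-/- samples. WT replicate 1 was the highest, and the groups did not overlap. Its log2 fold change was −0.18 (edgeR adjusted p = 0.00325, SE 0.040), from 50.9 ± 2.08 CPM to 45.1 ± 1.06 CPM (SD, n = 4 each). Its counts were not whole in any sample, so some of its reads were shared with other transcripts or genes by the authors' counting.

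*Cdkn1a* encodes p21, the inhibitor of cyclin-dependent kinases through which p53 stops the cell cycle, and was the second most abundant of the 32 genes per exon length. Its counts were 14750, 13975, 13992, and 13187 in WT and 13182, 13163, 12617, and 12449 in *Hint1*-/- samples. WT replicate 4 lay within the *Hint1*-/- range in CPM (two-sided exact permutation test of log2 CPM, p = 0.0857). Mean levels were 669 ± 30.9 CPM and 620 ± 19.2 CPM (SD, n = 4 each), so that *Cdkn1a* fell by 7.33% (log2 fold change −0.11, edgeR adjusted p = 0.0396, SE 0.037). This call was lost without WT replicate 1 (adjusted p = 0.145), WT replicate 3 (0.0895), *Hint1*-/- replicate 3 (0.0958), or *Hint1*-/- replicate 4 (0.114) in edgeR's test.

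*Ccng1*, which encodes cyclin G1, a partner of phosphatase 2A that acts on MDM2, was the most abundant of the 32 per exon length. It lies on chromosome 11 like *Trp53*, 14.1 Mb from *Hint1* on its other side. Counts were 15683, 15994, 15031, and 15602 in WT and 14079, 14658, 14081, and 14885 in *Hint1*-/- samples, and the groups did not overlap. *Ccng1* fell from 745 ± 18.7 CPM to 695 ± 20.3 CPM (SD, n = 4 each), with a log2 fold change of −0.10 (edgeR adjusted p = 0.0362, SE 0.033). The adjusted p was 0.0541 to 0.111 when 1 of 6 samples was omitted, namely WT replicate 1, 2, or 4 or *Hint1*-/- replicate 1, 2, or 3.

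The other 7 arrest and stress genes did not pass, and their log2 fold changes ran from −0.10 to 0.09. *Gdf15*, a secreted stress cytokine, was at −0.10 (872 to 1095 counts in WT and 847 to 969 in *Hint1*-/- samples, adjusted p = 0.242, edgeR). *Plk2* and *Plk3*, polo-like kinases, were at −0.08 (adjusted p = 0.0956, edgeR) and −0.06 (0.452). The sestrins, which restrain mTORC1 under nutrient stress, were at 0.02 for *Sesn1* and −0.01 for *Sesn2*, and *Zmat3*, an RNA-binding regulator of splicing, was at 0.01. *Gadd45a*, a sensor of DNA damage and other stress, had the most positive value of the group at 0.09 (adjusted p = 0.160, edgeR).

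Of the 13 cell death genes, 5 fell (38.5%) and 1 rose (7.69%), against 10.2% and 11.2% of all genes. The largest change of all 32 genes was among the 13. *Perp*, a membrane protein of desmosomes that p53 induces in apoptosis, lies on chromosome 10 from 18845020 to 18857073. It had 296, 326, 266, and 272 counts in WT and 189, 207, 215, and 202 in *Hint1*-/- samples. Even the highest *Hint1*-/- sample lay well below the lowest WT sample. *Perp* fell by 29.4%, from 13.9 ± 1.28 CPM to 9.80 ± 0.517 CPM (SD, n = 4 each), a log2 fold change of −0.50 with a 95% interval of −0.66 to −0.34 (edgeR adjusted p = 7.65e-05). It was the only gene of the 32 to change by more than 20% and the only one whose interval reached past a 1.5-fold change.

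The BH3-only genes *Pmaip1* (NOXA) and *Bbc3* (PUMA), whose products neutralize BCL2 and its relatives, fell, and so did *Bax*, which encodes the protein that forms pores in the outer mitochondrial membrane. *Pmaip1* had 408, 385, 336, and 358 counts in WT and 310, 287, 294, and 316 in *Hint1*-/- samples, with no overlap. Its level fell by 18.2%, from 17.8 ± 1.51 CPM to 14.5 ± 0.644 CPM (SD, n = 4 each; log2 fold change −0.29, edgeR adjusted p = 0.00428, SE 0.067). For *Bbc3*, counts were 536, 543, 551, and 590 in WT and 454, 460, 537, and 445 in *Hint1*-/- samples. *Hint1*-/- replicate 3 lay within the WT range, and the other *Hint1*-/- samples lay below it (two-sided exact permutation test, p = 0.0571). The log2 fold change of *Bbc3* was −0.22 (edgeR adjusted p = 0.0152, SE 0.061), from 26.5 ± 1.18 CPM to 22.8 ± 2.01 CPM (SD, n = 4 each), and its adjusted p was 0.0502 without *Hint1*-/- replicate 1 and 0.0570 without *Hint1*-/- replicate 4.

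*Bax* had 3225, 2932, 3154, and 3329 counts in WT and 2804, 2843, 2926, and 2772 in *Hint1*-/- samples. WT replicate 2 was the lowest WT sample and was overlapped by a *Hint1*-/- sample in CPM (two-sided exact permutation test, p = 0.0571). The level fell by 9.56%, from 151 ± 8.43 CPM to 137 ± 3.09 CPM (SD, n = 4 each; log2 fold change −0.14, edgeR adjusted p = 0.0113, SE 0.039), and the call held in all 15 alternatives. *Trp53inp1*, a stress-induced partner of p53 with a role in autophagy, had 1260, 1457, 1243, and 1253 counts in WT and 1110, 1163, 1169, and 1186 in *Hint1*-/- samples. WT replicate 2 stood well above the other WT samples, and the groups did not overlap. Its log2 fold change was −0.16 (edgeR adjusted p = 0.0190, SE 0.047). This became −0.10 without WT replicate 2 (adjusted p = 0.0537, edgeR) and −0.14 without *Hint1*-/- replicate 1 (0.0656).

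*Tnfrsf10b*, the mouse receptor for the death ligand TRAIL, was the single member that rose. It lies on chromosome 14 from 69767472 to 69784411 and had 1961, 1943, 1892, and 1869 counts in WT and 2029, 2104, 2150, and 2322 in *Hint1*-/- samples. Each *Hint1*-/- sample was above each WT sample, and *Hint1*-/- replicate 4 was the highest. It rose from 91.7 ± 2.04 CPM to 104 ± 5.90 CPM (SD, n = 4 each), or by 13.1% (log2 fold change 0.18, edgeR adjusted p = 0.00306, SE 0.040), and the call held in all 15 alternatives. Its counts were not whole in any of the 8 samples, so part of its reads were shared in the counting.

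**Figure D2:**
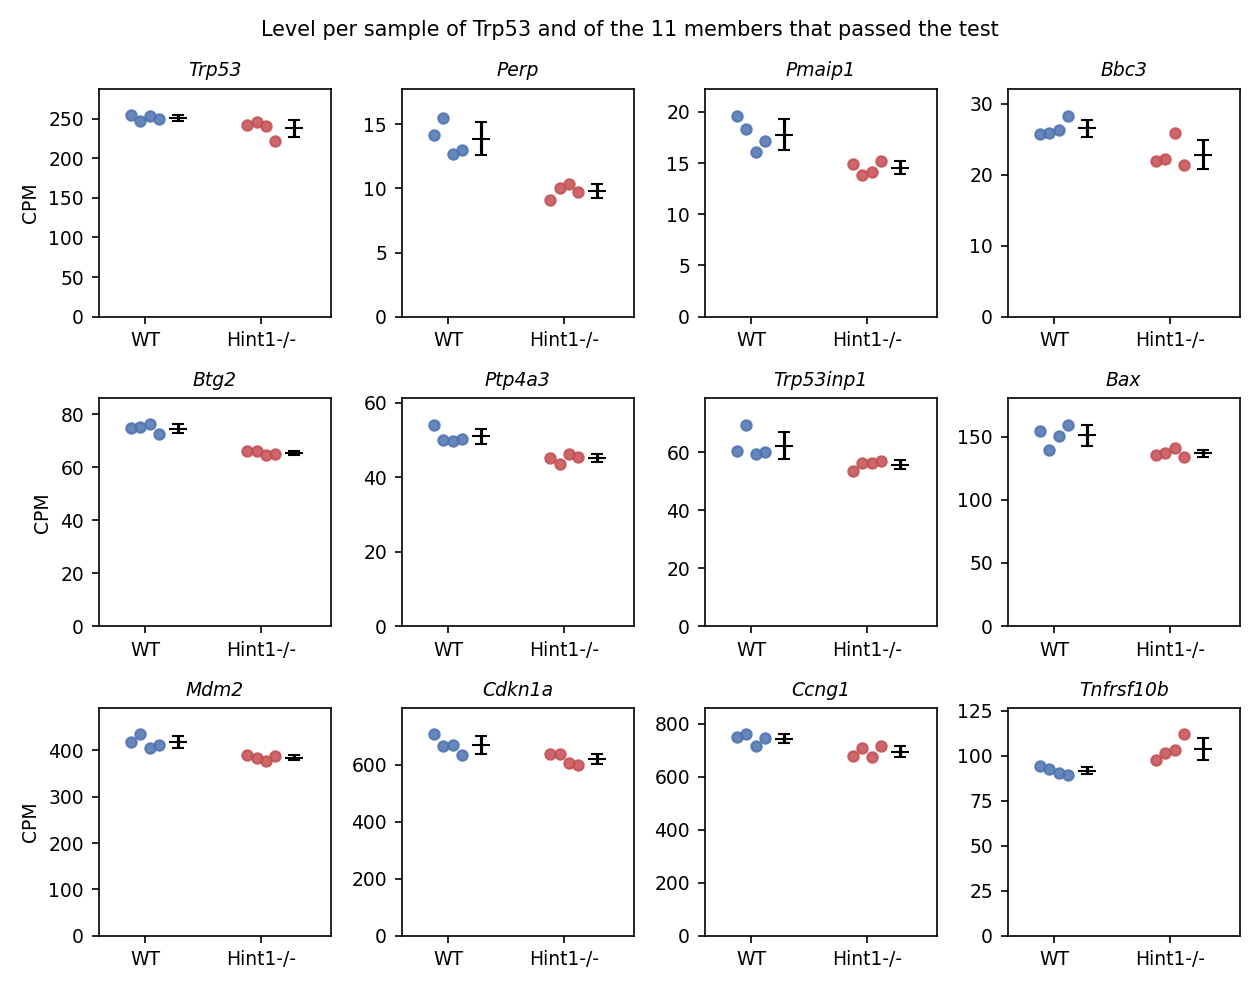
CPM (y axis, from 0) in each of the 4 WT and 4 *Hint1*-/- samples for *Trp53* and the 11 genes with an adjusted p under 0.05; points are samples and the bar beside them is the mean with its SD. *Perp* shows the widest separation (13.9 and 9.80 CPM), *Cdkn1a*, *Bax*, and *Bbc3* overlap between the genotypes, and *Tnfrsf10b* alone is higher in *Hint1*-/- samples.

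The remaining 7 cell death genes did not pass. *Apaf1*, the scaffold of the apoptosome, had 906 to 1026 counts in WT and 1001 to 1124 in *Hint1*-/- samples. It was at 0.12 on the log2 scale (adjusted p = 0.0682, edgeR) and passed without WT replicate 2 (0.14, adjusted p = 0.0347, edgeR). *Dram1*, a lysosomal membrane protein of autophagy, was at 0.08 and did not overlap between the genotypes (adjusted p = 0.119, edgeR). *Fas*, the death receptor, was at 0.04. The ranges overlapped for *Phlda3*, which restrains AKT at the membrane, at −0.06, for *Eda2r*, a receptor for an ectodysplasin, at −0.04, for *Aen*, an apoptosis-enhancing nuclease, at −0.04, and for *Ei24*, a protein of the endoplasmic reticulum, at −0.01.

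None of the 5 DNA repair genes passed edgeR's test, where *Ercc5* alone had an unadjusted p under 0.05, and DESeq2 and limma-voom passed none either. Of all genes 21.5% passed edgeR's test, and 5 genes are too few to set against that share. *Ercc5*, which encodes the XPG endonuclease of nucleotide excision repair, had 616 to 686 counts in WT and 669 to 706 in *Hint1*-/- samples. The fitted log2 fold change was 0.11 (95% interval 0.01 to 0.20, edgeR adjusted p = 0.106), and it passed without WT replicate 2 (0.14, adjusted p = 0.0408, edgeR). *Xpc* and *Ddb2*, which recognize damaged DNA in the same pathway, were at −0.03 and 0.06, the latter at 46 to 70 counts per sample and with 23.8% of its exon bases shared with *Acp2* on the opposite strand. *Rrm2b*, the p53-inducible subunit of ribonucleotide reductase, was at −0.03, and *Polk*, a translesion DNA polymerase, was at 0.03. Whether the roles differ from each other in how often their genes fell was not tested.

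Levels of different genes were compared per kilobase of annotated exon, and they spanned a wide range. In WT samples *Ccng1* was highest at 212 ± 5.31 CPM per kb and *Cdkn1a* next at 188 ± 8.71, followed by *Phlda3* at 119 ± 3.30, *Bax* at 95.9 ± 5.35, *Mdm2* at 82.3 ± 2.54, and *Trp53* at 62.1 ± 0.908 (SD, n = 4). The SD ranges of these 6 did not overlap. The death receptor *Fas* (46.8 ± 2.31 CPM per kb) and *Plk2* (45.1 ± 1.47) lay within that spread of each other, as did *Mdm4* (5.25 ± 0.196) and *Ercc5* (5.24 ± 0.238). At the low end, *Sesn1*, *Xpc*, *Rrm2b*, and *Ddb2* were at 2.80, 2.30, 1.92, and 1.03 CPM per kb. The BH3-only genes were far below *Bax* in both genotypes, with 12.5 ± 0.554 CPM per kb for *Bbc3* and 6.51 ± 0.553 for *Pmaip1* in WT and 10.8 ± 0.946 and 5.32 ± 0.236 in *Hint1*-/- samples. The exon length is that of all annotated transcripts of a gene together, which understates genes with long rare exons.

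**Figure D3:**
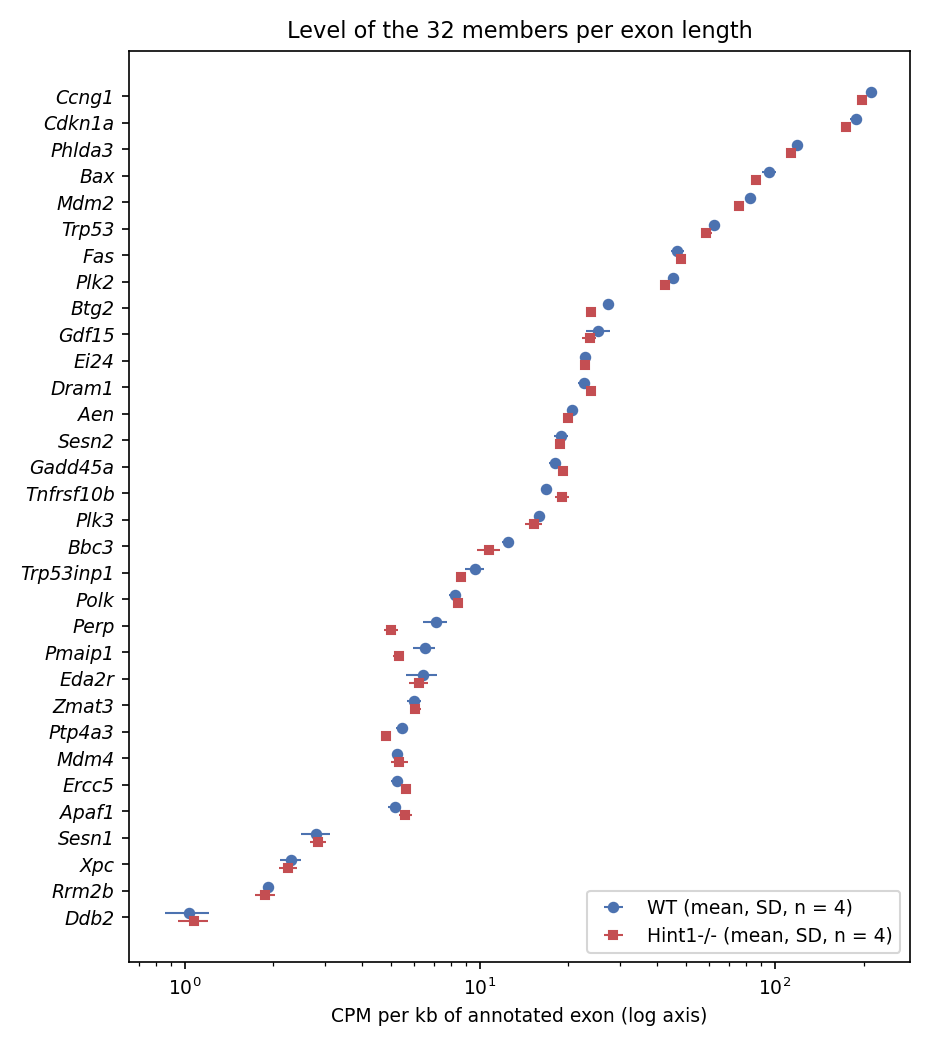
Mean CPM per kb of annotated exon (x axis, log scale) of the 32 genes in WT (circles) and *Hint1*-/- samples (squares), with SD bars (n = 4), ordered by the WT level. The range runs from 1.03 for *Ddb2* to 212 for *Ccng1* in WT, and the genotypes lie close together for most genes.

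Other genes of the pathway were read from 3 further lists. Of 22 upstream genes and cofactors, 20 were tested, and 2 passed, both higher. They were *Hipk2*, a kinase that phosphorylates p53 (log2 fold change 0.16, edgeR adjusted p = 0.00603), and *Cdkn2a*, whose products include the MDM2 inhibitor p19ARF. *Cdkn2a* had 122 to 145 counts in WT and 157 to 184 in *Hint1*-/- samples (0.35, edgeR adjusted p = 0.00903). Counts per gene symbol do not separate its transcripts. The p53 relatives *Trp63*, at 0 to 6 counts per sample, and *Trp73*, at 0 or 1, were too low to test. The damage kinases *Atm*, *Atr*, *Chek1*, and *Chek2* lay between −0.03 and 0.04 and did not pass. These 2 of 20 compare with 21.5% of all genes.

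Among 23 further target genes, 21 were in the files and tested, and 7 passed. That was 33.3% of them, against 21.5% of all genes. Of the 7, 5 were higher (23.8% of the list) and 2 lower (9.52%), against 11.2% and 10.2% of all genes. Among the 21, 14 log2 fold changes were positive and 7 negative, with a median of 0.03. Calls in this list were thus mostly higher, whereas those among the p53 genes listed first were mostly lower. *Ckap2* (0.21, adjusted p = 0.000624, edgeR) and *Gtse1* (0.15), whose products are also spindle proteins of mitosis, rose. The secreted factors *Lif* (0.22) and *Igfbp3* (0.14) rose as well. *Trp53i11* fell by 0.36 on the log2 scale and *Sfn*, the 14-3-3σ gene, by 0.44 at 41 to 71 counts per sample. *Gls2*, a mitochondrial glutaminase at 11 to 27 counts per sample, was at 0.68 and did not pass (95% interval 0.16 to 1.20, edgeR adjusted p = 0.0603). *Igfbp3* and *Sfn* lost their calls in 6 and 3 of the 15 alternatives, with edgeR or DESeq2 adjusted p up to 0.141 and 0.0981. Except for *Ckap2*, these genes, *Cdkn2a*, and the damage kinases were named after their values were seen.

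The cell cycle genes that p53 lowers through p21 were mostly higher in *Hint1*-/- samples. Of the 17 tested, 11 rose and 1 fell, together 70.6% of the list against 21.5% of all genes, and the median log2 fold change was 0.17. *Cenpf*, a kinetochore protein of dividing cells, had 764, 901, 770, and 842 counts in WT and 1094, 1133, 976, and 1103 in *Hint1*-/- samples, with no overlap. It rose by 32.4% (log2 fold change 0.41, edgeR adjusted p = 2.38e-05, SE 0.055). The gene that fell was *Mybl2*, a transcription factor of the cell cycle (−0.17, adjusted p = 0.0401, edgeR), which lost its call in 7 of the 15 alternatives (adjusted p up to 0.143). Of the 5 cell cycle genes that did not pass, *E2f1*, *Rrm2*, and *Mcm5* were negative, at −0.05, −0.03, and −0.10. *Birc5* and *Ccna2* were positive, at 0.09 and 0.10. Past both an adjusted p under 0.05 and a fold change of 1.5 there were 0 genes in each of the 3 lists by edgeR's test.

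**Figure D4:**
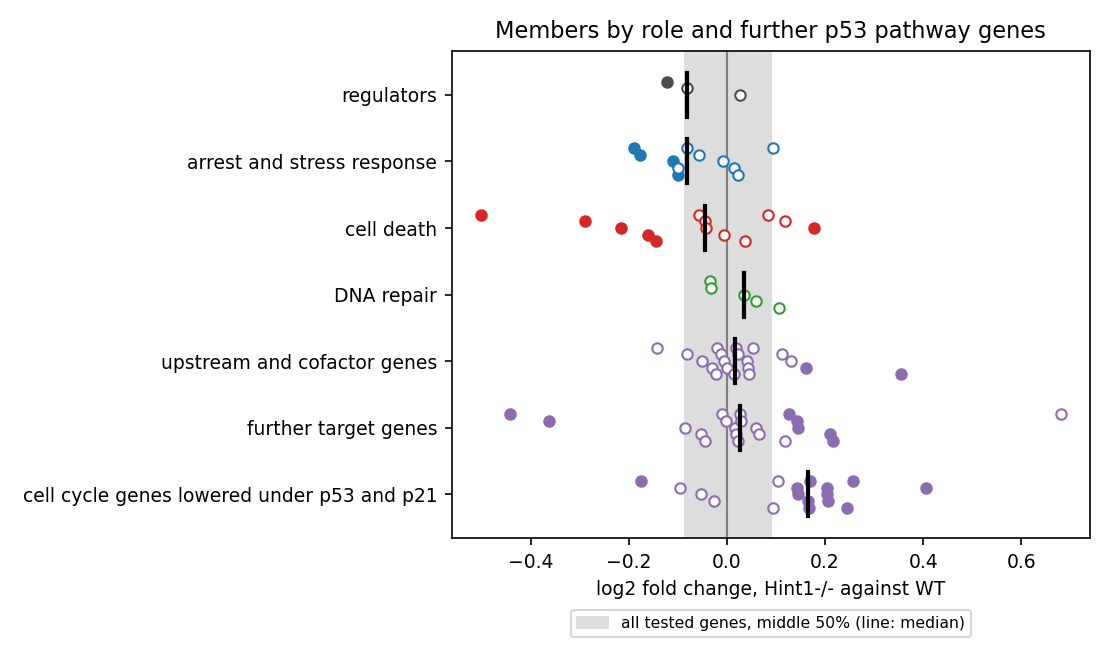
Log2 fold change (x axis, *Hint1*-/- against WT) of each tested gene of the 4 member groups and the 3 further lists, with filled points for an adjusted p under 0.05, a black bar for each median, and a gray band for the middle 50% of all tested genes (−0.09 to 0.09). The arrest and cell death groups have their filled points mostly left of the band, with medians of −0.08 and −0.04, and the cell cycle genes theirs mostly right of it, with a median of 0.17.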

How the data were processed

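MASMCs from WT and *Hint1*-/- mice (n = 4 each, PDGF-BB) were profiled by RNA-Seq of oligo(dT)-selected RNA with 50-base reads. The authors deposited unnormalized estimated counts for each gene symbol. The submitters' processing notes name Bowtie2, RSEM 1.3.1, DESeq2 1.4.5, and mm10, whereas the paper's methods name HISAT2; the gene annotation and strand setting are not given in the sources used here. Between 67.3% and 67.8% of values, zeros included, were whole as deposited (no fractional part, no tolerance), and 19 of the 32 genes had whole counts in all samples. Among genes that passed, besides *Ptp4a3* and *Tnfrsf10b*, counts were not whole in 7 samples for *Mdm2*, 5 for *Bbc3* and *Pmaip1*, and 3 for *Ccng1*.

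Counts were rounded, filtered (filterByExpr), TMM-normalized, and fitted across 13535 genes with genotype as the only term (edgeR 4.0.16 glmQLFit and glmQLFTest in R 4.3.3, two-sided, Benjamini-Hochberg adjustment). The SE is the log2 fold change divided by the square root of F, and log2 CPM used a prior count of 2. Intervals are 95%. A gene passed at an adjusted p under 0.05. The methods' fold limit of 1.5 was applied separately. Totals of 20778077 to 20888041 counts left a biological coefficient of variation of 3.79%. Tested on simulated data for this comparison over 13455 genes, the fit recovered 96.0% of 100 genes changed 2-fold in either direction. Of 98 genes changed 1.25-fold it recovered 71.4%, and it falsely called 15 unchanged genes. Changes below 1.25-fold, the size of every passing member but *Perp*, were not simulated. Far fewer genes were changed in the simulation than passed in the real data.

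Pairs of samples differed by a chi-square per gene of 2.10 to 5.47 within and 11.8 to 17.2 between genotypes. Positions and exon lengths came from GENCODE M21 (mm10) for all 32 genes and promoter windows from RefSeq (GRCm38.p6). Of the genes that passed, *Bax* shares 12.2% of its exon bases with *Gm45808* on the same strand. *Cdkn1a* shares 7.68% with *AC167363.2* on the opposite strand. The exact permutation test has 70 assignments and a smallest p of 0.0286. Alternatives were DESeq2 1.42.0 as a tool and for size factors, limma-voom (limma 3.58.1), upper-quartile normalization, other filters, a replicate block, and each sample left out. All members are accounted for, those that passed with every sample. From the further and marker lists, genes past both thresholds or with the smallest adjusted p were named. Some genes of these lists are not reported here. The members and lists were chosen with earlier results of these data known.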

Additional observations from a re-analysis of the deposited data

Results flagged for a closer look

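In 2 of the 64 groups of 4 samples examined (32 genes, 2 genotypes), 1 sample stood apart from the other 3, measured as its distance to the nearest divided by the group's range in log2 CPM. Chance marks about 1 in 20 groups, or 3.2 of 64. WT replicate 2 stood apart for *Trp53inp1*, with 1457 counts where the other WT samples had 1243 to 1260, a distance of 0.893 of the range. WT replicate 1 stood apart for *Ptp4a3*, with 1127 counts where the rest had 1038 to 1048, a distance of 0.875. The call for *Ptp4a3* held with each sample left out, and that for *Trp53inp1* was lost without WT replicate 2 (edgeR adjusted p = 0.0537).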

How the results depend on the processing

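The count of 11 of 32 genes, 10 lower and 1 higher, was the same in number and in genes under DESeq2's size factors, upper-quartile normalization, no filter, a minimum of 10 counts in each sample, a replicate block, DESeq2, and limma-voom. With each sample left out it ranged from 8 to 11, with 7 to 9 lower and 1 to 3 higher, and the 3 arose without WT replicate 2, where *Apaf1* and *Ercc5* passed. The count past the fold limit stayed at 0 throughout, and the count over the 3 further lists, 21, ranged from 14 to 22. Calls of 7 of the 11 genes held in all 15 alternatives, and *Cdkn1a*, *Ccng1*, *Bbc3*, and *Trp53inp1* lost theirs in some fits that left out 1 sample, which have fewer samples. The direction turned for 9 genes near 0 that did not pass, each time with 1 sample left out and an adjusted p of at least 0.656 in edgeR's test. Over the 8 fits that left out 1 sample, the log2 fold change ranged from −0.0177 to 0.0523 for *Mdm4*, −0.0435 to 0.0903 for *Sesn1*, −0.0326 to 0.0269 for *Sesn2*, −0.0139 to 0.0382 for *Zmat3*, −0.113 to 0.0288 for *Eda2r*, −0.0169 to 0.00469 for *Ei24*, −0.0757 to 0.00788 for *Rrm2b*, −0.0805 to 0.0131 for *Xpc*, and −0.0449 to 0.151 for *Ddb2*. Same-numbered samples of the 2 genotypes deviated with correlations of −0.0450 to 0.0814, and 3 of the 8 samples correlated best with their own number. No pairing by number was seen, but the labels do not state whether same-numbered samples were prepared together. The replicate block gave 11 genes and changed no call among the 32. Counts limit *Ddb2* most, and *Perp*, *Pmaip1*, *Sesn1*, *Rrm2b*, and *Xpc* had at most 408 in any sample.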
